A study of Mus musculus with 9 samples.

Results

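Cd44 encodes a cell-surface glycoprotein, and the ZEB1 occupancy around this gene is described here over 13 of the 23623 consensus peaks of a CUT&RUN series. The cells were PB3, which are mouse breast cancer cells labelled Er-/Pr-/Her2-. A peak belonged to Cd44 when its centre lay inside the gene, or when, among protein-coding genes with a boundary within 50 kb, Cd44 had the nearest one. The cells were untreated (labelled PB3-Parental) or exposed for 24, 48 or 72 h to 300 nM eribulin (labelled PB3_ERI), an inhibitor of microtubule growth used against breast cancer, with 2 libraries in each of the 4 groups and 1 further IgG library from untreated cells. All libraries come from 1 cell line, no vehicle is named for the untreated cells, and no label ties a replicate to its own culture, so each p-value reflects no more than the spread among these libraries, which may be technical. The series title speaks of inducing a mesenchymal-to-epithelial transition, and the comparisons ask where ZEB1 signal differs with time in the drug. CUT&RUN of 1 factor gives no expression values, so neither the cell type nor the level of Cd44 RNA can be checked from these data.

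CD44 binds hyaluronan, a sugar polymer of the extracellular matrix, and anchors the membrane to the actin cortex through ezrin, radixin and moesin. Its messenger RNA is spliced into a standard form, common in mesenchymal cells, and into variant forms that epithelial splicing factors favour, and a high surface level of CD44 is widely used to mark mesenchymal and stem-like breast cancer cells. ZEB1 is a zinc-finger factor that binds E-box sequences and is best known for repressing epithelial genes, among them the gene of the splicing factor ESRP1. Cd44 was selected on measured values, its calls against control: over the mean of the 3 eribulin times, 3 of its peaks had already been seen to pass the threshold as lower than control. Fold changes and calls against control are therefore given below as a description, with no p. Comparisons among the eribulin times, in which no control library is compared, are given with their tests. The controls still enter the filter, the scaling and the estimate of spread of those tests, which are thus not fully separate from them.

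Cd44 lies on chromosome 2 at 102811141 to 102901669 (GRCm38), is read from the high toward the low coordinate, and begins at 102901665 in the RefSeq promoter table. The 13 peaks are numbered in the direction of transcription. Peaks 1 to 4 lie upstream of the start site, peak 5 covers it, peaks 6 to 11 have their centres inside the gene and peaks 12 and 13 lie beyond its end. The peak over the start site, peak 5, spans 102901455 to 102901785. The stretch before the start site is shown because it is the only part of the locus whose letters were at hand, with the bases that fall inside peak 5 in capitals (RefSeq, GRCm38.p6, chr2:102901666-102901915, minus strand, 250 bases ending just before the start site).
Cd44 promoter: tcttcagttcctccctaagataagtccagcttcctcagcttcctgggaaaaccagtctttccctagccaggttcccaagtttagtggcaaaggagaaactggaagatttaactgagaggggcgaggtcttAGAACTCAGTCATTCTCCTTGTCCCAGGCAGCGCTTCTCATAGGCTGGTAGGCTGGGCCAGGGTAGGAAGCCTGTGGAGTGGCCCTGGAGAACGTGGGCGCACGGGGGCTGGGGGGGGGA
Of these 250 bases, 120 fall inside the peak, and 56.4% are G or C, where the median over all promoters is 52.4%. The E-box that ZEB1 prefers, CACCTG or, on the other strand, its reverse complement CAGGTG, has no match in the window, and 17.2% of 32817 RefSeq promoter windows of the same length hold it on either strand. The wider E-box CANNTG, which includes the first and reads the same on both strands, has no match either, and 66.2% of the windows hold it. This says only that these letters are not in this window, and the part of the peak beyond the start site was not searched.

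Summed ZEB1 signal at the locus was high and unevenly spread over its peaks. Summed over its 13 peaks, Cd44 held on average 790 CPM (reads scaled by the TMM-adjusted sum over tested peaks of that library), rank 27 of 10343 genes with a peak, and the median gene held 55.0 CPM. The number of peaks is part of that rank: a gene had a median of 1 peak, and 40 genes (0.387%) had at least 13. Among the members the mean level per kb of peak ran from 44.4 CPM per kb at peak 4 to 275 CPM per kb at peak 3, which stood above 99.3% of all consensus peaks. Peak 1, peak 5 and peak 8 followed with 128, 143 and 135 CPM per kb, higher than 77.2, 84.3 and 80.7% of peaks. The other 8 members lay between 76.0 and 110 CPM per kb, higher than 27.6 to 64.1% of peaks, and peak 4 was higher than 3.55%. The authors' peak lists, 1 per group and named for replicate 1 against IgG, held 11 of the 13 peaks in the untreated group, and 8, 9 and 7 of them after 24, 48 and 72 h. Peaks 1, 3, 6, 7 and 8 were in all 4 lists. Peaks 4, 9 and 12 were in the control list alone, peak 11 in the 24 h list alone, and peak 10 in the 24 and 48 h lists. A peak found in only some of the lists was selected for a high value in those groups.

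All 13 peaks passed the filter on low counts and were tested. Library totals in consensus peaks ran from 326944 at 72 h, replicate 2, to 765015 at 48 h, replicate 1, and the controls held 372896 and 672582. Replicates of each group differed by about counting error, with a chi-square per degree of freedom between 0.931 and 1.06. They were kept as 2 libraries, with summed pairs as an alternative. In that fit the control, 24 h and 72 h pairs were each summed. The 48 h libraries were kept apart, and they alone gave the spread. Member counts lay between 0 and 219 reads per library, so SEs on the small peaks are wide. The SEs and intervals below come from the edgeR fit. They reflect the spread among these libraries, which was about counting error. The signal of each peak is plotted by library.

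**Figure D1:**
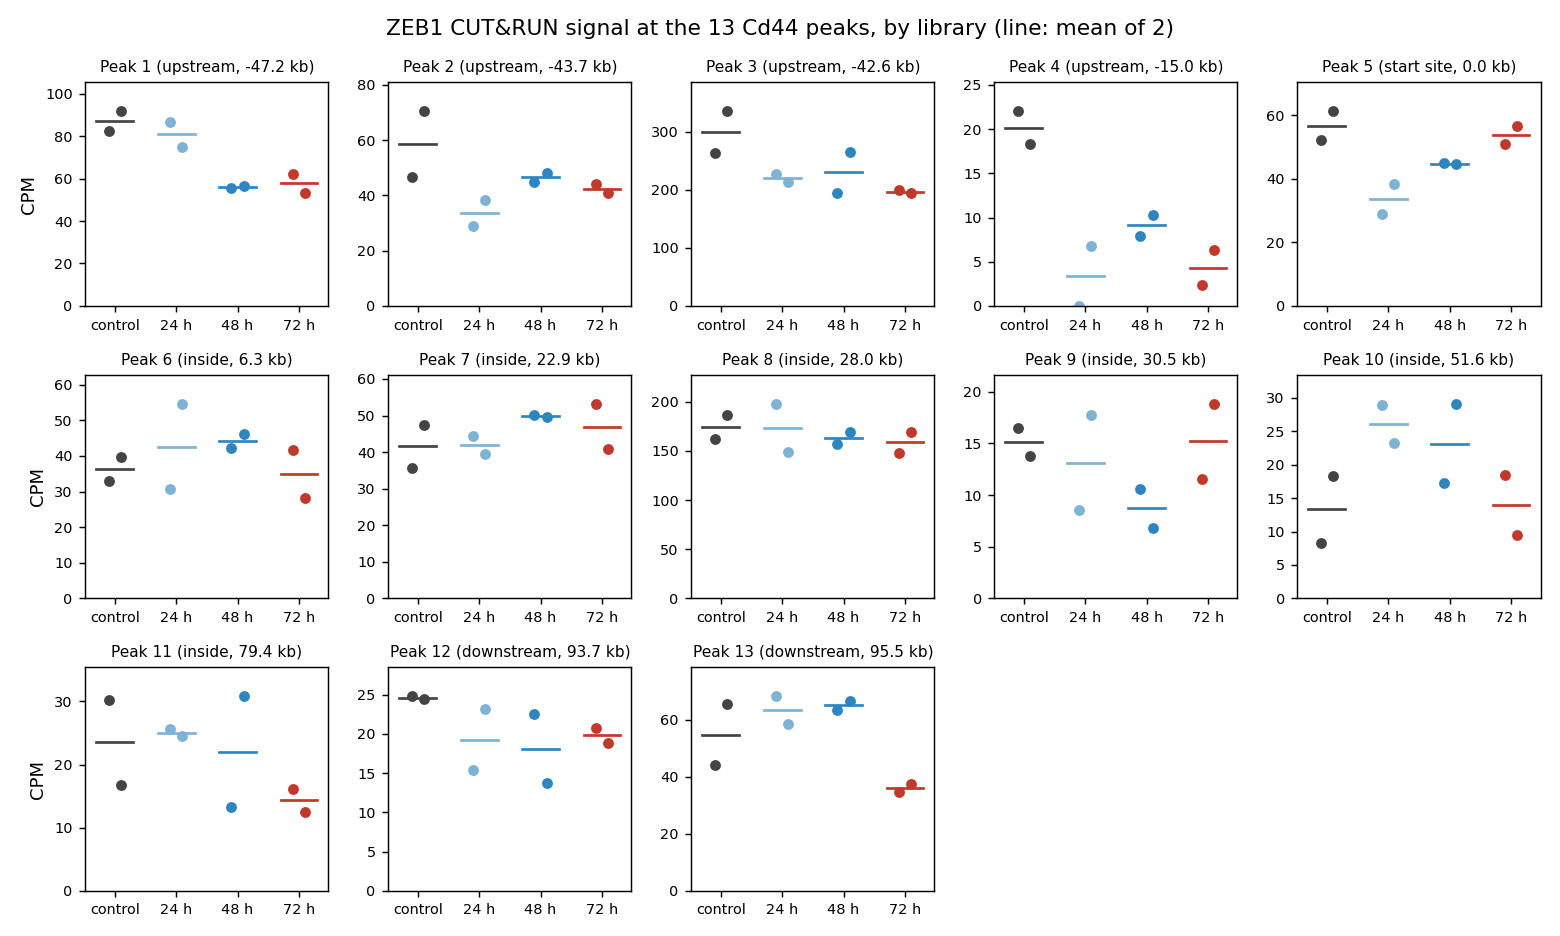
ZEB1 signal (CPM, vertical axis from 0) at each of the 13 Cd44 peaks in the untreated and eribulin libraries, with 1 point per library, a line for the mean of 2, and the distance of the peak centre from the start site in kb above each panel (negative is upstream). At peak 4 every eribulin library lies below both controls, and at peak 8, inside the gene, the groups overlap.

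Upstream of the gene, signal was lower under eribulin at all 4 peaks, and 3 of the 4 were called lower over the mean of the 3 times. No peak at the start site, inside the gene or beyond its end was called in any comparison with control. Over the mean of the 3 times the calls were therefore 3 of 13 lower and 0 higher, where 8.53% of all 21192 tested peaks were called lower and 8.27% higher. By time, 3 of 13 were lower at 24 h, where 4.61% of all peaks were, 2 of 13 at 48 h (5.41% of all peaks), and 2 of 13 after 72 h (5.74% of all peaks). None was higher, against 6.44, 6.09 and 6.84% of all peaks. The median log2 fold change of the 13 was -0.11, -0.37 and -0.30 at the successive times and -0.27 over their mean, beside 0.00 or -0.01 over all tested peaks. Nothing is read from these shares, since the gene was chosen with the calls over the mean known and all comparisons share the same 2 control libraries. The division by place was also made with the values known.

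Peak 3, at 102943852 to 102944710, is the strongest of the locus and lies 42.6 kb upstream of the start site inside Gm34483, a long noncoding RNA gene. It held 264 and 335 CPM in the untreated libraries, with 227 and 214 in the 24 h pair, 195 and 265 in the 48 h pair, and 199 and 195 in the 72 h pair. All eribulin libraries but 1 lay below both controls, the exception being 48 h replicate 2, which stood barely above control replicate 1. The log2 fold change was -0.48 (SE 0.135), -0.44 (SE 0.135) and -0.64 (SE 0.156) at the 3 times, and -0.52 (SE 0.115) over their mean, and the peak was called lower in all 4 comparisons. In the authors' lists its fold over IgG was 33.2 in the untreated group and 20.3, 18.7 and 16.8 after 24, 48 and 72 h. This fold did not go with the counts at every member. At peak 2 it was 7.14 for control, 8.41 for 48 h and 7.47 for 72 h, with no entry for 24 h. At peak 1 it was 11.1 for control and 11.9, 11.1 and 5.69 at the 3 times. At peak 8 it was 12.5 for control and 18.2, 16.6 and 14.1.

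Its neighbours in Gm34483 are peak 2, at 102945132 to 102945654, and peak 1, at 102948553 to 102949102. Peak 2 held 46.8 and 70.3 CPM in the untreated libraries, with 29.0 and 38.2 in the 24 h pair, 45.0 and 47.9 in the 48 h pair, and 43.9 and 40.8 in the 72 h pair. The lowest libraries were those of 24 h, where the log2 fold change was -0.86 (SE 0.273) and the peak was called. Over the mean it was called too, at -0.60 (SE 0.223), but not at 48 h (-0.42, SE 0.253) or 72 h (-0.54, SE 0.301). Peak 1 held 82.5 and 91.7 CPM in the untreated libraries, with 87.0 and 75.0 in the 24 h pair, 55.6 and 56.5 in the 48 h pair, and 62.4 and 53.3 in the 72 h pair. Its later libraries all lay below the controls while those of 24 h overlapped them, a pattern that was not counted over all peaks. The log2 fold change of peak 1 was -0.14 (SE 0.205) at 24 h, -0.66 (SE 0.222) at 48 h, where it was called, and -0.59 (SE 0.256) at 72 h.

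Peak 4, at 102916590 to 102916797, lies between this cluster and the gene, 15.0 kb upstream of the start site, and is the weakest member. It held 22.0 and 18.3 CPM in the untreated libraries, with 0 and 6.82 in the 24 h pair, 7.94 and 10.3 in the 48 h pair, and 2.31 and 6.27 in the 72 h pair. All 6 eribulin libraries lay below both controls, as they did at peak 12 as well, so 2 of 13 members showed this, where 12.5% of all tested peaks did. Both peaks are in the control list alone, so they entered the consensus through the group where they are high, and nothing is read from this count. These values rest on few reads, 20 in the controls together and 5, 12 and 3 at the 3 times, and the 0 at 24 h, replicate 1, allows up to 5.12 CPM (3 reads). The fitted log2 fold change over the mean was -1.89 (SE 0.532), and the peak was called over the mean, at 24 h and at 72 h. Without 24 h replicate 2 the value became -3.25 over the mean and -6.39 at 24 h, where it was -2.31 with all libraries, and without 24 h replicate 1 it was -1.49 at 24 h and not called there.

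Summed over the 4 upstream peaks, signal was 415 and 515 CPM in the untreated libraries, with 343 and 334 in the 24 h pair, 303 and 380 in the 48 h pair, and 307 and 295 in the 72 h pair. Every eribulin library lay below both controls in this sum, which includes the peaks whose calls led to the choice of Cd44. The mean was 465 ± 70.7 CPM (SD, n = 2) in the controls and 338 ± 6.02, 341 ± 54.3 and 301 ± 8.87 (SD, n = 2 each) at 24, 48 and 72 h, a difference from control of -27.2, -26.6 and -35.3%. The upstream peaks made up 50.5 and 52.1% of all Cd44 signal in the controls and between 41.8 and 45.4% in the eribulin libraries. The ranges did not overlap, but nothing is read from the sum or the share, since the peaks were grouped with their values known. The sums are plotted by place.

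**Figure D2:**
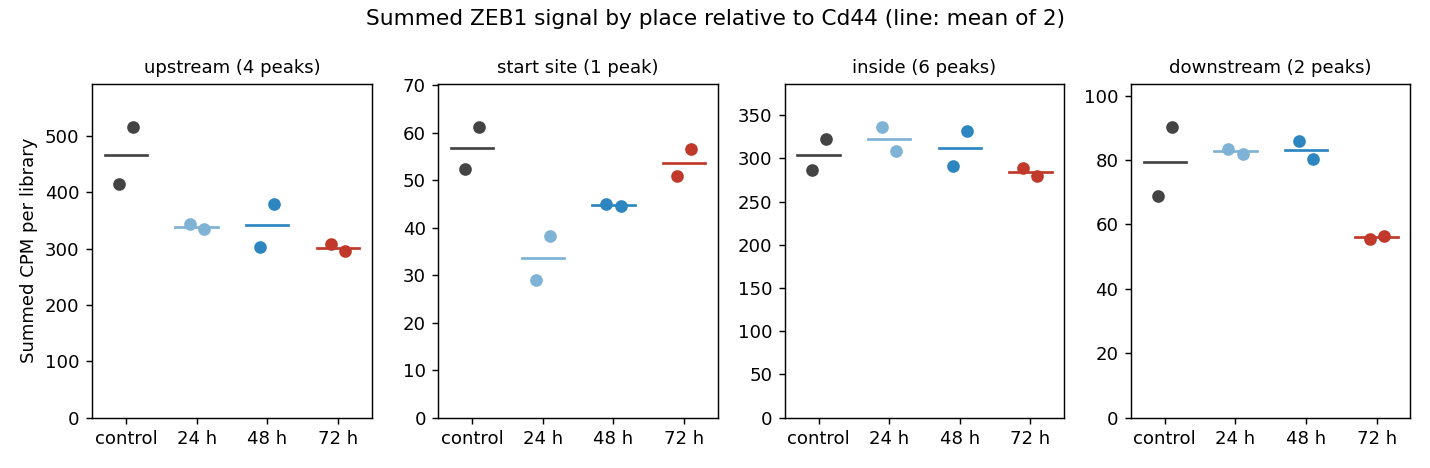
Summed ZEB1 signal (CPM, vertical axes from 0 and scaled separately) of the peaks upstream of Cd44, at its start site, inside it and downstream of it, with 1 point per library and a line for the mean of 2. Upstream the eribulin libraries hold 295 to 380 CPM against 415 and 515 CPM in the controls, while inside the gene the groups overlap.

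At the start site signal was lowest at 24 h and no change was called. Peak 5 held 52.3 and 61.1 CPM in the untreated libraries, with 29.0 and 38.2 in the 24 h pair, 45.0 and 44.5 in the 48 h pair, and 50.8 and 56.5 in the 72 h pair. The libraries of 24 h were the lowest, those of 48 h lay between them and the controls, and those of 72 h overlapped the controls. The log2 fold change against control was -0.76 (SE 0.276) at 24 h, -0.37 (SE 0.258) at 48 h and -0.12 (SE 0.287) at 72 h, and none of the 3 was called. From 24 to 72 h the change was 0.64 (SE 0.307), which did not pass in edgeR's quasi-likelihood test (adjusted p = 0.215 over all tested peaks). Both 72 h libraries lay above both 24 h libraries. Neither this separation nor those from the controls were counted over all peaks. The authors' lists left this peak out at 24 h and gave it a fold over IgG of 8.92 for control, 12.5 for 48 h and 8.13 for 72 h.

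Inside the gene, 6 peaks showed no called change, with log2 fold changes over the mean from -0.27 to 0.46 and a median of -0.01, the same as the median of all tested peaks (-0.01). The strongest of them is peak 8, at 102873084 to 102874327, 28.0 kb into the gene. It held 162 and 187 CPM in the untreated libraries, with 198 and 149 in the 24 h pair, 157 and 169 in the 48 h pair, and 148 and 169 in the 72 h pair. The groups overlapped at every time. Its log2 fold change over the mean was -0.12 (SE 0.133, 95% interval -0.38 to 0.14). Whether the upstream and inner peaks differ in their change was not tested, since the upstream values were known when the gene was chosen. Summed over the 6 inner peaks, the controls held 286 and 323 CPM and the eribulin libraries between 279 and 336 CPM, with a mean of 304 ± 25.8 CPM (SD, n = 2) in the controls and 322 ± 19.5, 311 ± 28.9 and 284 ± 6.89 (SD, n = 2 each) at 24, 48 and 72 h.

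The other inner peaks were smaller. Peak 6, at 6.30 kb into the gene, held 33.0 and 39.7 CPM in the controls and between 28.2 and 54.6 in the eribulin libraries, and peak 7, at 22.9 kb, held 35.8 and 47.4 CPM against 39.6 to 53.2. Peaks 9 and 11, of which the first was in the control list alone and the second in the 24 h list alone, ran from 6.84 to 18.8 CPM and from 12.5 to 30.8 CPM over all 8 libraries. At each of these 4 peaks the 6 eribulin libraries, pooled over the times, overlapped the controls. Peak 10, at 102849969 to 102850193, had the highest fold change of the locus: it held 8.25 and 18.3 CPM in the untreated libraries, with 29.0 and 23.2 in the 24 h pair, 17.2 and 29.1 in the 48 h pair, and 18.5 and 9.41 in the 72 h pair. Both 24 h libraries stood above both controls, which was not counted over all peaks either. The log2 fold change at 24 h was 0.80 (SE 0.425), which was not called. Peak 10 was in the 24 and 48 h lists alone. It thus entered the consensus through groups where it is high, and nothing is read from its higher values there.

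**Figure D3:**
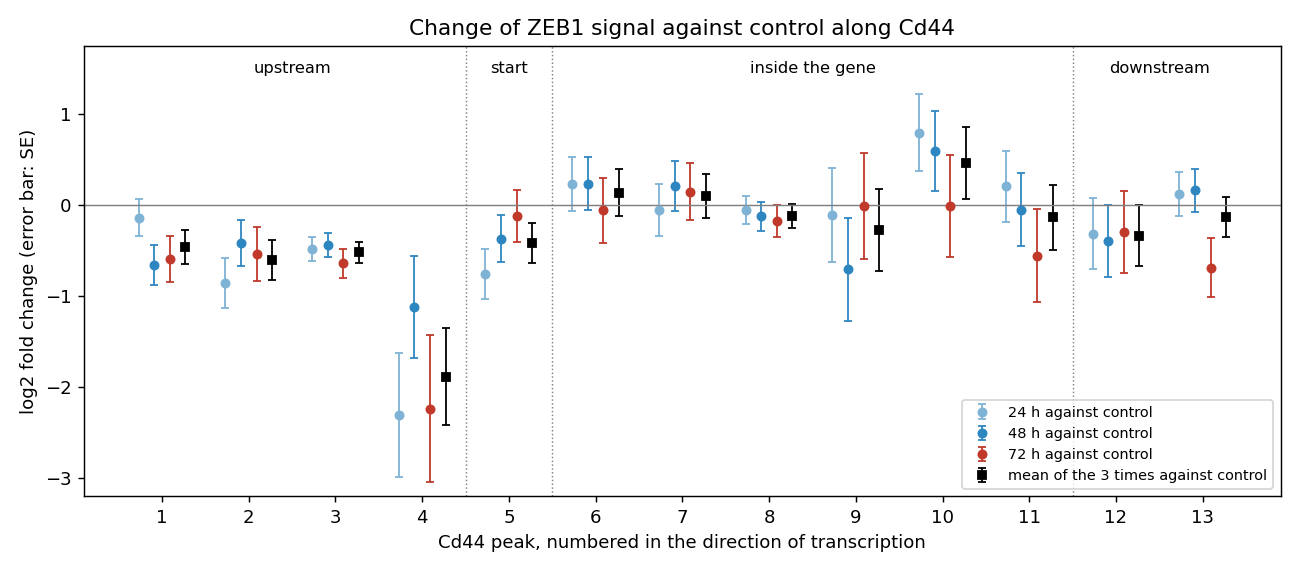
Log2 fold change against control (vertical axis, error bars are the SE) at each of the 13 Cd44 peaks (horizontal axis, in the direction of transcription) for 24, 48 and 72 h of eribulin and for the mean of the 3 times. Peaks 1 to 4, upstream, lie below 0 in all 4 comparisons, while peaks 6 to 11, inside the gene, lie on both sides of 0.

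Beyond the end of the gene lie peak 12, at 102807814 to 102808082, and peak 13, at 102805805 to 102806451. Peak 12 held 24.8 and 24.5 CPM in the controls and between 13.7 and 23.2 in the eribulin libraries, so the groups did not overlap, but its log2 fold change over the mean, -0.33 (SE 0.337), was not called. Peak 13 held 44.0 and 65.7 CPM in the untreated libraries, with 68.2 and 58.7 in the 24 h pair, 63.5 and 66.7 in the 48 h pair, and 34.7 and 37.6 in the 72 h pair. Both 72 h libraries were lower than all of the others, a pattern that was not counted over all peaks. Its log2 fold change was 0.12 (SE 0.242) at 24 h, 0.16 (SE 0.239) at 48 h and -0.69 (SE 0.321) at 72 h, none of them called, and the authors' lists held it for every group but 72 h.

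Among the eribulin times themselves no Cd44 peak passed in edgeR's quasi-likelihood test. From 24 to 48 h, 0 of 13 were called (0.222% of all tested peaks were called higher and 0.533% lower, 0.755% in all), with the lowest adjusted p = 0.219 at peak 1 (log2 fold change -0.52, SE 0.213). From 24 to 72 h, 0 of 13 were called (2.32% of all peaks higher and 2.39% lower, 4.71% in all), and the lowest adjusted p was 0.0952 at peak 13 (-0.80, SE 0.301), followed by 0.215 at peak 5. From 48 to 72 h, 0 of 13 were called (0.0283% of all peaks higher and 0.00944% lower, 0.0378% in all), with the lowest adjusted p = 0.318 at peak 13 (-0.85, SE 0.298). At an unadjusted p under 0.05 the counts were 1, 2 and 1, and DESeq2 called none in any of the 3, though from 24 to 72 h it gave an adjusted p to only 4 of the 13. Over all 21192 peaks DESeq2 called 0, 5 and 0 in these comparisons. At peak 3 the change from 24 to 72 h was -0.16 (SE 0.159, 95% interval -0.47 to 0.15) and at peak 8 it was -0.12 (SE 0.172, 95% interval -0.46 to 0.22).

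The calls against control depended on the tool and on single libraries. Over all tested peaks, calls were also fewer in DESeq2 and without control replicate 2. The losses below are thus not particular to Cd44. DESeq2 called none of the 13 peaks in any comparison with control but gave an adjusted p to only 7 of them at 24 h and 8 in each of the others, never to peaks 4, 9, 10, 11 and 12. Over all 21192 peaks it called 90, 76 and 115 at 24, 48 and 72 h and 231 over the mean. The edgeR fit called 2341, 2437, 2666 and 3559. DESeq2 gave log2 fold changes over the mean of -0.57, -0.50 and -1.97 at peaks 2, 3 and 4. Leaving out control replicate 2, the deeper control, left no call either, and the values over the mean became -0.19 at peak 2, -0.30 at peak 3 and -2.04 at peak 4. At 48 h no call was left without 48 h replicate 1 either, and at 24 h 1 call was left without either of the 24 h libraries. Without either 72 h library, or without control replicate 1, 1 call was left at 72 h, and without control replicate 1 or 48 h replicate 2, 1 call was left at 48 h. Over the mean, peak 3 was called in 12 of 14 other fits, peak 4 in 10 of the 12 that gave it an adjusted p, and peak 2 in 3 of 14.

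Peaks just beyond the 50 kb limit were also called lower. Peak 1, the outermost member, has its centre 47.2 kb from the start site, and the nearest peaks outside the limit lie 55.3 and 57.3 kb upstream, in the same noncoding gene. Of the 5 consensus peaks between 50 and 100 kb upstream, 4 were tested, and all 4 were called lower over the mean, where 8.53% of all tested peaks were. At 102956563 to 102957317 signal was 245 and 217 CPM in the controls and 138 to 208 in the eribulin libraries (-0.53, SE 0.126 over the mean). At 102958404 to 102959530 it was 184 and 144 CPM against 69.0 to 128 (-0.62, SE 0.148). Each of these peaks had all 6 eribulin libraries below both controls, as 12.5% of all tested peaks did. Over the mean, DESeq2 called neither, and the second was not called without control replicate 1.

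Farther upstream, at 102980835 to 102982115, 79.8 kb from the start site, the controls held 195 and 223 CPM, the 24 h libraries 113 and 109, those of 48 h 86.0 and 94.1, and those of 72 h 67.0 and 104. Here the log2 fold change was -0.94 (SE 0.158) at 24 h, -1.25 (SE 0.164) at 48 h and -1.36 (SE 0.196) at 72 h. This peak, whose nearest gene boundary is that of Pdhx, a gene of the pyruvate dehydrogenase complex, was called at 48 h, at 72 h and over the mean under all 14 other fits, DESeq2 and the fit without control replicate 2 included. The peak at 102987073 to 102987690, also nearest to Pdhx, changed by -1.06 (SE 0.270) over the mean and was called there, though not by DESeq2 or without control replicate 2. The single peak at the far end of Pdhx, nearest to Apip, changed by 0.39 (SE 0.168) and was not called.

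On the other side, beyond the end of Cd44, none of the 3 tested peaks within 500 kb of the gene was called lower. A peak inside Slc1a2, the gene of a glutamate transporter, at 102758442 to 102758594, went the other way: it held 5.50 and 7.64 CPM in the controls and 12.5 to 30.7 in the eribulin libraries, and was called higher at 24 h (1.99, SE 0.495) and 48 h (1.85, SE 0.505). It was not called without control replicate 2 at either time, nor at 48 h without control replicate 1 or 48 h replicate 1, and DESeq2 gave it no adjusted p. A thin peak nearest to Trim44, at 102401326 to 102401512, held 0 and 6.11 CPM in the controls and 19.8 and 17.1 CPM at 48 h, the only time at which it was called (2.18, SE 0.696). That call was lost without either control or either 48 h library, DESeq2 gave it no adjusted p, and the value ran from 1.56 to 6.35 over the other fits. The region is plotted with distances from the Cd44 start site.

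**Figure D4:**
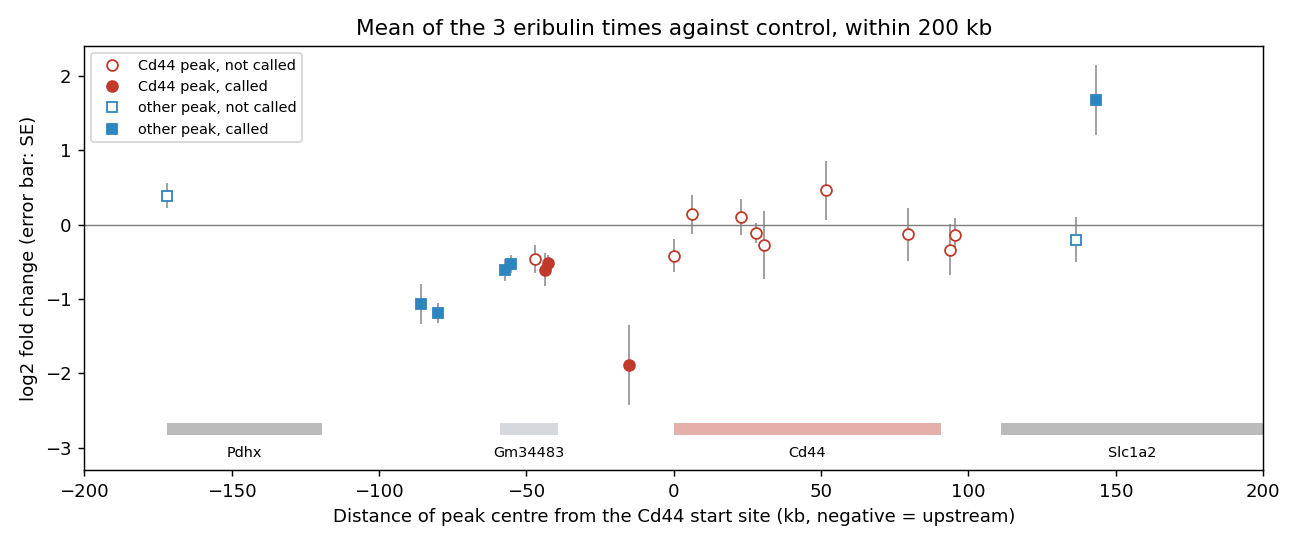
Log2 fold change of the mean of the 3 eribulin times against control (vertical axis, error bars are the SE) for every tested peak within 200 kb of the Cd44 start site (horizontal axis, kb, negative is upstream), with Cd44 peaks as circles, other peaks as squares, called peaks filled, and bars for the genes. The called falls, 3 at Cd44 peaks and 4 at other peaks, all lie between 15.0 and 85.7 kb upstream, and the called rise lies in Slc1a2.

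Genes that work with CD44 were followed through 7 lists of 76 genes, of which 51 had at least 1 peak. Over the mean of the 3 times, 20 of their 141 tested peaks fell, 7 rose and 114 did not pass, with a median log2 fold change of -0.16 beside -0.01 over all tested peaks, where 8.53% of all peaks fell and 8.27% rose. The counts of each list below stand beside these same shares. Nothing is read from them, since the lists were chosen with earlier results of these data known. All calls also share the same 2 control libraries. DESeq2 called 3 lower and 1 higher, where over all 21192 peaks it called 110 lower and 121 higher. Without control replicate 2 the median log2 fold change of the list peaks was -0.07, beside -0.00287 over all tested peaks. Esrp1 and Esrp2, the splicing regulators tied to variant CD44, and Hmmr and Lyve1, other hyaluronan receptors, had no consensus peak assigned.

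In the hyaluronan list 7 of 29 peaks fell and 2 rose (median -0.18). The peak of Tnfaip6, whose product modifies and crosslinks hyaluronan, held 71.5 and 53.5 CPM in the controls and 12.5 to 29.0 under eribulin (-1.46, SE 0.257), and that of Has2, a hyaluronan synthase gene, 90.8 and 70.3 CPM against 34.5 to 54.6 (-0.85, SE 0.208). Peaks of the hyaluronidase genes Hyal1 (1.07, SE 0.163) and Hyal2 (1.28, SE 0.351), which are near each other on chromosome 9, rose. Of the other hyaluronan receptors, 1 of 7 peaks fell, that of Layn, the layilin gene, with 113 and 110 CPM in the controls and 37.6 to 68.2 under eribulin (-1.13, SE 0.182). None of the 4 peaks of other CD44 ligands passed.

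Among the membrane linkers and cytoplasmic partners of CD44, 10 of 58 peaks fell and 1 rose (median -0.29). The largest falls were at Iqgap1, a scaffold gene (-1.19, SE 0.409), and at Ezr, which encodes ezrin, where signal was 116 and 94.8 CPM in the controls and 32.5 to 61.4 under eribulin (-1.15, SE 0.189), and the rise was at Epb41 (0.56, SE 0.177). Of 7 peaks of the proteases that cut CD44, 2 rose, those of Psen2 (0.78, SE 0.252) and of Ncstn (1.02, SE 0.296), 2 genes of gamma-secretase, the second shared with its neighbour Copa. Of 26 peaks of receptors that use CD44 as a co-receptor, 1 of Egfr rose (1.25, SE 0.295) and another of Egfr fell (-0.55, SE 0.162). Among 10 peaks of splicing regulators, that of Rbfox2 rose (1.08, SE 0.302) and that of Hnrnpa1 fell (-0.47, SE 0.129). Of the peaks named from these lists, those of Hyal1, Tnfaip6, Layn and Ezr passed in DESeq2, without control replicate 1 and without control replicate 2, and no other passed in all 3.

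By the course of the summed signal over the 8 libraries, genes among the most like Cd44 of 5171 others were Tacc2, Slc25a21, Lclat1 and Tnfrsf11a, with Pearson's r of log2(CPM + 1) of 0.98, 0.95, 0.94 and 0.94. For peak 3 alone, the most similar of 10246 other peaks lay nearest to Phlda1 (0.96), Lclat1 (0.96), Lama3 (0.95), Pbp2 (0.95) and Etv6 (0.94). These are the top of a long ranking over libraries of unequal depth, and describe likeness only.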

How the data were processed

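ZEB1 CUT&RUN counts in consensus peaks were deposited as raw counts, 1 column per library, with no scaling by the authors as far as the values show. The submitters' processing notes name Bowtie2 2.2.6, MACS2 2.1.1, bedtools 2.30.0, featureCounts and GRCm38 (mm10), with no role or order given. In the deposited peak lists the authors give each peak a fold ratio over IgG, the −log10 of its q-value, and a score; for replicate 2, its use in these lists is not given in the sources consulted. The IgG library and 2431 peaks with low counts entered no test.

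The quasi-likelihood test of edgeR 4.0.16 (R 4.3.3) was run on the counts (filterByExpr, TMM, robust quasi-likelihood fit of all 8 libraries with 1 mean per group, 4 residual degrees of freedom), with Benjamini-Hochberg adjustment over 21192 tested peaks and a threshold of 0.05. The script was tested on simulated data. SEs are the fitted log2 fold change divided by the square root of F. DESeq2 1.42.0 and 13 other edgeR fits were alternatives. No added control DNA entered the scaling here, so values are relative to the other peaks of a library. Genes came from the RefSeq table of GRCm38.p6. Members and gene lists were chosen with earlier results of these data known. All Cd44 peaks are named; list genes are named by the largest called fold changes over the mean, up to 2 in each direction, neighbours by a call within 500 kb, and similar genes by the 5 highest correlations, of which 1 is not reported here. Replicate numbers were not used to pair the samples. Differences between replicates correlated at -0.0302 to 0.00100 between groups. Since replicates differed by about counting error, this could not show whether they were paired.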

Additional observations from a re-analysis of the deposited data

How the results depend on the processing

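The number of Cd44 peaks called against control was small and moved with most settings, while the called values kept their sign in every fit that gave one. DESeq2 called 0 at 24 h, at 48 h, at 72 h and over the mean (3, 2, 2 and 3 in edgeR), but it gave an adjusted p to only 7, 8, 8 and 8 of the 13 peaks. Over all 21192 peaks it called 90, 76, 115 and 231, where edgeR called 2341, 2437, 2666 and 3559. With libraries thinned to the smallest total, 326944, the counts were 0, 0, 1 and 1, with only 8 of the 13 peaks, peak 4 not among them, left by the filter. Over all 16343 peaks left there, 767, 771, 1492 and 1529 were called. With summed replicate pairs 0 were called at 48 h and 1 at 72 h. With the replicate block 1 was called at 72 h, and the block changed no other count by more than 1.5 times. Leaving out 1 library gave 0 to 3 calls at 24 h, 0 to 2 at 48 h, 0 to 2 at 72 h and 0 to 3 over the mean; the 0 was reached without control replicate 2 at every time, and at 48 h also without 48 h replicate 1. Over all tested peaks these fits also called fewer than the fit of all libraries. The cause was not tested. In the time comparisons no Cd44 peak was called by DESeq2, after thinning or with the replicate block. From 24 to 48 h, 24 to 72 h and 48 to 72 h, DESeq2 called 0, 5 and 0 of all 21192 peaks. After thinning 5, 429 and 3 of 16343 were called. With so few calls in most of these comparisons, the lack of one at Cd44 says little about this gene.

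The log2 ratio of the summed Cd44 signal to control was -0.22, -0.21 and -0.38 at 24, 48 and 72 h and -0.27 for their mean. With peaks centred inside the gene only it was -0.0212, -0.0192, -0.0962 and -0.0451, and with a window of 10 kb -0.00667, -0.00347, -0.162 and -0.0555, because the upstream peaks leave the sum. Leaving out 1 library gave -0.35 to -0.0818 at 24 h, -0.34 to -0.0747 at 48 h, -0.51 to -0.24 at 72 h and -0.40 to -0.13 for the mean, the ends being the fits without control replicate 1 and without control replicate 2. Between 0 and 219 reads per peak and library limit what could be seen at the smaller peaks.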
